A study of Mus musculus with 36 samples.

Results

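The 9 genes described here are Glul, Axin2, Rhbg, Slc1a2, Lect2, Rnf43, Tbx3, Oat and Lgr5, which mark the hepatocytes around the central vein of the liver lobule and respond to Wnt signalling there. They were chosen by name: a probe belongs to the set when the gene name in the scanner files, or the current symbol of its accession, is one of the 9. All 9 have a probe in the authors' processed table, among 13042 genes with a probe there. The array carries 17 probes for them, of which 13 are in the table, 3 each for Glul and Slc1a2 and 1 for each of the other 7 genes.

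The data are liver expression profiles of 36 adult male mice, with 12 mice in each of 3 groups. The strain is C57BL/6J by the sample labels and C57BL/6JOlaHsd, a different substrain, by the study's methods. All mice were adapted to a mild-high-fat diet in which fat gave 30% of the energy. The adaptation lasted 3 weeks by the sample labels, longer than in the study's methods. The baseline group (t=0) was killed after this adaptation, at 0 weeks of intervention, the control group (HF) stayed on the same diet for 12 weeks, and the quercetin group (HF-Q) received it for 12 weeks with 0.33% (w/w) quercetin, a plant flavonol. Every mouse was fasted before killing, and every array compared the Cy5-labelled RNA of a single liver with the same Cy3-labelled pool of all livers. The groups at 12 weeks differ from t=0 in age, in time on the diet and in the day of killing, which cannot be told apart. In whole liver, fewer pericentral cells and less RNA per cell cannot be told apart either.

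Hepatocytes differ along the axis from the portal field to the central vein. Endothelial cells of the central vein secrete Wnt ligands and R-spondins, which keep β-catenin in the nearest hepatocytes from being degraded, and β-catenin with the TCF factors then activates pericentral genes. The 9 genes have several roles. Axin2 (scaffold of the β-catenin destruction complex) and Rnf43 (a ubiquitin ligase that removes Frizzled receptors) are feedback inhibitors switched on by the pathway, Lgr5 is a receptor for R-spondins, and Tbx3 is a transcription factor downstream of β-catenin. Glul (glutamine synthetase), Rhbg (an ammonium transporter), Slc1a2 (a glutamate transporter) and Oat (ornithine aminotransferase) handle the nitrogen that reaches the last hepatocytes before the vein, and Lect2 is a secreted protein of hepatocytes.

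Upstream sequences were searched for the recognition sequence of the TCF factors. Those printed are of the 2 members with a match, of Axin2, which has none, and of Sp5, which is not a member. Whether TCF binding has a part in the levels or in their variation between livers was not tested. The RefSeq table (build GRCm38.p6) held a start site for 6 of the 9 genes. In the 250 bases before each start, both strands were searched for the motif CTTTGAA as well as the motif CTTTGAT, and for the motif CTTTGTA as well as the motif CTTTGTT, all of them forms of the TCF recognition sequence. At least 1 of these 4 occurred in 14.8% of all 32851 promoters of the table, and CTTTGAT alone in 3.21%. Slc1a2 and Lect2 each held 1 match, and Axin2, Glul, Oat and Rnf43 held none in this window. Sp5, a transcription factor induced by Wnt signalling and the gene closest to Rnf43 in its variation between livers, held 2. The windows are chr2:102706188-102706437 on the + strand for Slc1a2, chr13:56548539-56548788 on the - strand for Lect2, chr2:70474673-70474922 on the + strand for Sp5 and chr11:108920099-108920348 on the + strand for Axin2. They are written 5′ to 3′ along the gene, and capitals mark the matches, which appear as their reverse complement where they lie on the opposite strand.
Slc1a2: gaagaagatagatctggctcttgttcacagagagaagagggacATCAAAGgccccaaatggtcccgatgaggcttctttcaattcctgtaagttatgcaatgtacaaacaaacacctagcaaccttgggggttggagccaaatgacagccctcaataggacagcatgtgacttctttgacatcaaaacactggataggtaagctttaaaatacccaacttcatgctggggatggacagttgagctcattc
Lect2: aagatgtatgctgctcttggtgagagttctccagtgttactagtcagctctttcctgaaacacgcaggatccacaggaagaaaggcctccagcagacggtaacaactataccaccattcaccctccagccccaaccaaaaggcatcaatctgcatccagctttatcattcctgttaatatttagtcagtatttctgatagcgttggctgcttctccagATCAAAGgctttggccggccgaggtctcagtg
Sp5: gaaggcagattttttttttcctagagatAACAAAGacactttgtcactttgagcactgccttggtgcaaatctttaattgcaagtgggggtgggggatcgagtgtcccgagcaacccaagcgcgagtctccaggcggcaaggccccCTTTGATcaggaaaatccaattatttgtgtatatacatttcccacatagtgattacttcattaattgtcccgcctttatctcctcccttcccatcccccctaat
Axin2: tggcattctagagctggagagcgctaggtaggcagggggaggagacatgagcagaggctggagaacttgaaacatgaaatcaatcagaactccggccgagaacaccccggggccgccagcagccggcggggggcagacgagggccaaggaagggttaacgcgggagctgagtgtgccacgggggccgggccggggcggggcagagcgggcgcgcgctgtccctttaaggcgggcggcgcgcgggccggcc
Counted back from the start site, the first base of the match is at -207 in Slc1a2 and at -32 in Lect2, and those of the 2 matches in Sp5 are at -222 and -104. A match describes these letters and is not a measured binding site.

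Levels are given as processed log2 values. Such a value is the log2 ratio of Cy5 over Cy3 put back on the scale of the mean Cy3 signal of its spot, so a difference of 1 is a doubling, and a level cannot be set against that of another probe. The 13 probes were well above background on all 36 arrays, whereas the 4 probes outside the table were so on 1 to 11 arrays and were not analysed further. Axin2 was the dimmest member, with a Cy5 signal of 2.9 times its local background, and its differences are compressed towards 0 because the authors' values carry no background correction. A pair of arrays stood apart. In quercetin replicate 2, 96.7% of spots were well above background in Cy5, against 56.4% to 67.4% on the other arrays. Control replicate 5 held transcripts of pancreatic enzymes: 17 of 17 measured genes of an acinar list were highest there, 6.59 to 13.93 log2 units above the median of the other 35 arrays. It was also the lowest control array for Rhbg, Slc1a2, Oat and Lect2. Results that rest on these arrays are also given without them.

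Of the 9 genes, Rhbg was the one called by its brightest probe in a comparison of groups. Its level after 12 weeks was below that at t=0 with and without quercetin, and no significant difference between HF-Q and HF was found for any of the 9 genes on that probe. By the rule used throughout (limma, adjusted p under 0.05), 1 of the 9 genes was called in HF against t=0, where 21.3% of all probes were called, 1 in HF-Q against t=0, where 11.9% were called, and 0 in HF-Q against HF, where 2.36% were called. At an unadjusted p under 0.05 the counts were 4, 2 and 1 of 9, beside 35.6%, 28.3% and 14.9% of all genes, so these counts are near or below the shares over all genes. The median log2 difference over the 9 genes was -0.01, -0.04 and -0.04, beside 0.02, 0.02 and -0.005 over all genes.

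**Figure D1:**
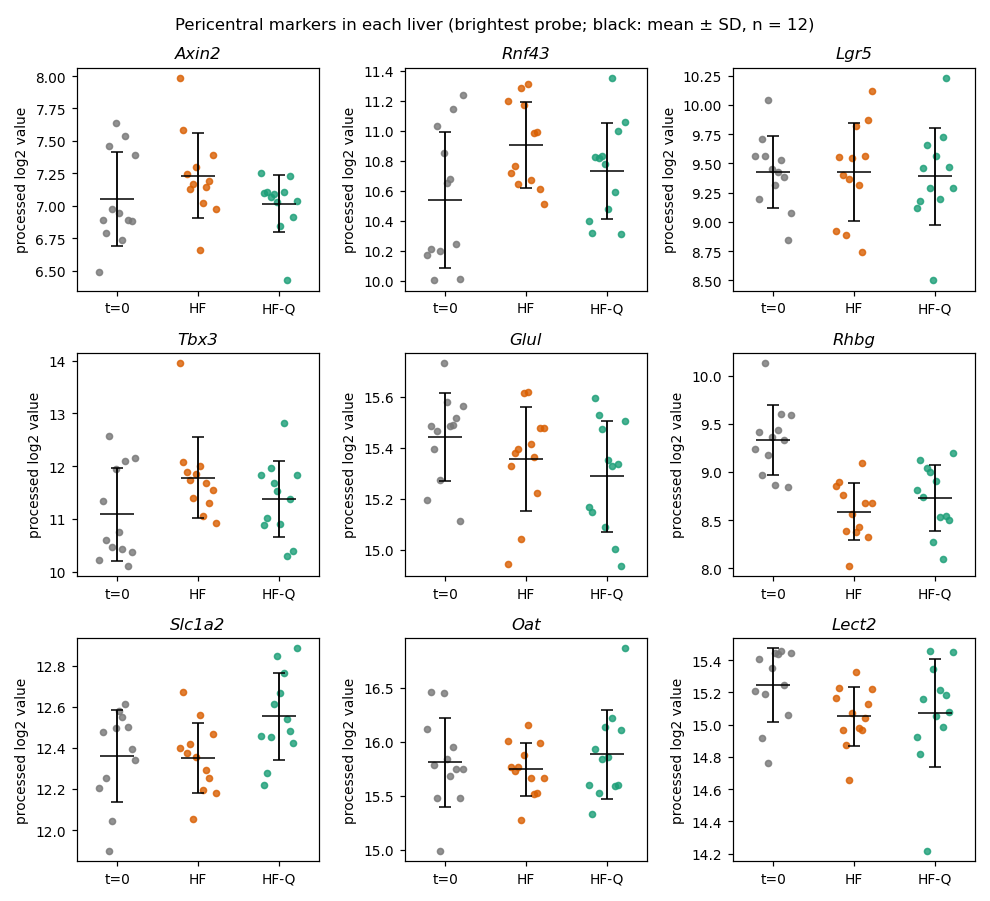
Processed log2 values of the 9 pericentral genes (brightest probe, vertical axis, a separate scale for each gene) in every liver of the t=0, HF and HF-Q groups, with the mean and SD (n = 12) in black. Rhbg lies lower in HF and HF-Q than at t=0, while the 3 groups overlap in each of the other genes, and 1 HF liver has a Tbx3 value of 13.96, far above the rest.

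Rhbg, which moves ammonium across the membrane of pericentral hepatocytes, was measured by probe A_51_P400366 (mm8, chr3:88329270-88329329). Its values ran from 8.84 to 10.13 with a median of 9.35 at t=0. In the control group they ran from 8.03 to 9.09, median 8.62, and in the quercetin group from 8.09 to 9.19, median 8.77. No mouse of either 12-week group exceeded the t=0 median, although the ranges overlapped. The level fell by 0.74 on the log2 scale from t=0 to HF (standard error 0.13, n = 12 per group, limma, adjusted p = 0.000162), a fold of 0.598, with a 95% interval from -0.998 to -0.49. From t=0 to HF-Q it fell by 0.60 (standard error 0.13, limma, adjusted p = 0.00411), with an interval from -0.87 to -0.33. Both calls held in all 13 alternatives of processing and test, in which the differences lay between -0.85 and -0.65 and between -0.71 and -0.51. Between HF-Q and HF the difference was 0.14 (standard error 0.12, limma, adjusted p = 0.601), with an interval from -0.11 to 0.39.

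Other features of the livers moved over the same 12 weeks. Over all genes, 13.4% were called higher and 7.68% lower in HF than at t=0. In HF-Q against t=0 these shares were 7.45% and 5.41%. The 7 Kupffer cell markers had a mean level of 10.47 to 12.39 (median 11.15) at t=0, 11.22 to 12.30 (median 11.60) in HF and 11.20 to 12.03 (median 11.62) in HF-Q, and 0 of 7 were called in either comparison with t=0. Of 6 cholangiocyte markers, Sox9, Krt19 and Krt7 were higher in HF than at t=0, and their mean level had medians of 8.64, 8.99 and 8.75 in t=0, HF and HF-Q. Of 10 endothelial markers, Pecam1 was lower (-0.34, adjusted p = 0.0036) and Cdh5 higher (0.20, adjusted p = 0.0101) in HF than at t=0, and neither was called in HF-Q against t=0. Hba-a1, a haemoglobin gene of red blood cells, was higher than at t=0 by 0.93 in HF (adjusted p = 0.000308) and by 1.21 in HF-Q (adjusted p = 4.05e-07). Alas2, the other measured gene of the erythroid list, went the other way. It differed from t=0 by -0.14 in HF and by -0.26 in HF-Q, where it was called lower. The 6 measured hepatocyte markers had median levels of 16.36, 16.36 and 16.31 in the 3 groups. None of them was called in HF against t=0. In HF-Q against t=0, 1 was called lower, and their differences ran from -0.33 to 0.22. The part of cell composition or blood content in the Rhbg values was not tested.

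The glutamate transporter Slc1a2 was read by 3 probes, of which 1 was called. Probe A_51_P477875 (mm8, chr2:102578483-102578542) lay between 10.00 and 10.71 at t=0 (median 10.43), between 9.87 and 10.31 in HF (median 10.09) and between 10.10 and 10.89 in HF-Q (median 10.46). All 12 quercetin mice were above the control median, and no control mouse exceeded the t=0 median. This probe was 0.34 log2 units higher in HF-Q than in HF (standard error 0.07, limma, adjusted p = 0.00939) and 0.33 lower in HF than at t=0 (difference -0.33, standard error 0.08, limma, adjusted p = 0.0044). Between HF-Q and t=0 the difference was 0.01 (standard error 0.09, limma, adjusted p = 0.975).

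The brightest Slc1a2 probe, A_52_P168496 (mm8, chr2:102578388-102578447), lies next to the called one. Its values were 11.90 to 12.61 at t=0 (median 12.43), 12.05 to 12.67 in HF (median 12.37) and 12.22 to 12.88 in HF-Q (median 12.51). HF-Q minus HF was 0.20 (standard error 0.08, limma, adjusted p = 0.187), with 10 of 12 quercetin mice above the control median, and HF minus t=0 was -0.01 (adjusted p = 0.936). The first of these passed with loess (0.24, adjusted p = 0.0365) and with quantile normalization (0.23, adjusted p = 0.0439). The third probe, A_52_P178651 (mm8, chr2:102582750-102582809), gave 0.19 (adjusted p = 0.0878) and -0.11 (adjusted p = 0.184) for the same differences. So the 3 probes shared the direction of HF-Q against HF, and their deviations from the group means correlated with r of 0.68 to 0.80 over the 36 livers. The drop from t=0 to HF was past the threshold on the one probe and near 0 on the brightest.

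Clock gene levels differed between the control and the quercetin group as well. Arntl (Bmal1), an activator of the circadian clock, had values of 7.80 to 9.23 (median 8.98) in HF and 6.90 to 8.61 (median 7.81) in HF-Q, and Dbp, a clock output that peaks in the opposite phase, had medians of 14.94 and 15.99. At t=0 the medians were 8.11 and 15.92, with a wider spread. The Slc1a2 call in HF against t=0 held in all 13 alternatives and that in HF-Q against HF in 15 of 16. With Arntl as a covariate, the exception, the called probe differed by 0.27 between HF-Q and HF (limma, adjusted p = 0.215), a fit in which 1 of 21781 probes was called. The part of clock phase in the Slc1a2 values was not tested further.

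**Figure D2:**
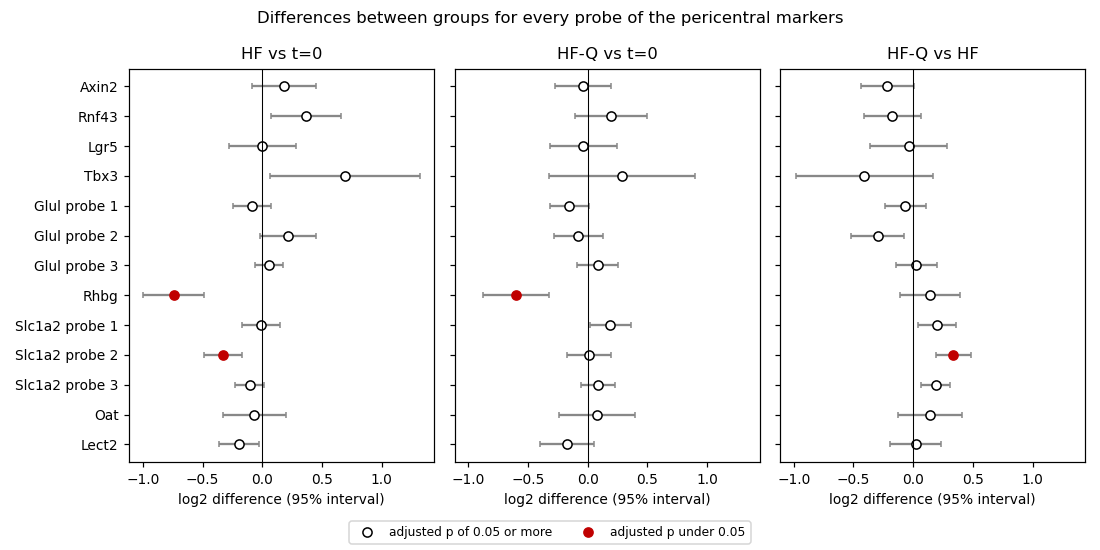
Log2 differences between groups (horizontal axis, with 95% intervals) for the 13 probes of the 9 genes in the 3 comparisons. Filled red points passed an adjusted p of 0.05 in limma: Rhbg in both comparisons with t=0, and Slc1a2 probe 2 (A_51_P477875) in HF vs t=0 and HF-Q vs HF.

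For the feedback genes and Tbx3, the HF medians were above those at t=0, but no difference passed the threshold. Rnf43 (probe A_51_P337101, mm8, chr11:87551637-87551696) had values of 10.00 to 11.24 at t=0 (median 10.45), 10.51 to 11.31 in HF (median 10.88) and 10.31 to 11.35 in HF-Q (median 10.80). All 12 control mice were above the t=0 median, and the difference was 0.37 (standard error 0.14, limma, adjusted p = 0.0645). It passed in 1 of the 13 alternatives, the fit with Arntl as a covariate (0.46, adjusted p = 0.0428). HF-Q minus HF was -0.17 (adjusted p = 0.483).

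Tbx3 (probe A_52_P183368, mm8, chr5:119945081-119945140) varied most between livers of the same group. Its values spread from 10.11 to 12.57 at t=0 (median 10.68), from 10.92 to 13.96 in HF (median 11.70) and from 10.29 to 12.81 in HF-Q (median 11.45). Again all 12 control mice were above the t=0 median, with a difference of 0.69 (standard error 0.31, limma, adjusted p = 0.105) and an interval from 0.06 to 1.32. Without control replicate 1, the liver at 13.96, the difference was 0.50 (adjusted p = 0.175). HF-Q minus HF was -0.41 (adjusted p = 0.495), less than the pooled SD of 0.75 between mice.

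Axin2 (probe A_52_P54176, mm8, chr11:108766756-108766815) had values of 6.49 to 7.64 at t=0 (median 6.92), 6.66 to 7.99 in HF (median 7.18) and 6.42 to 7.25 in HF-Q (median 7.08). Its highest value came from the same control liver as the highest Tbx3 value. Differences were 0.18 for HF against t=0 (adjusted p = 0.331) and -0.22 for HF-Q against HF (standard error 0.11, limma, adjusted p = 0.334), where 2 of 12 quercetin mice were above the control median. These differences depended on the setting: over the alternatives the first lay between 0.09 and 0.46 and the second between -0.45 and 0.12, the value above 0 being that with Arntl as a covariate. Without control replicate 1 the first was 0.11 and the second -0.15. Lgr5 (probe A_51_P218091, mm8, chr10:114855901-114855960) had medians of 9.44, 9.48 and 9.38 at t=0, HF and HF-Q within an overall range of 8.50 to 10.23. Its 3 differences lay between -0.04 and 0.00, with adjusted p of 0.903 or more, and the 95% interval for HF-Q minus HF ran from -0.36 to 0.29.

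Glul, the enzyme that fixes ammonium into glutamine and the classical mark of the innermost ring of hepatocytes, was called on none of its 3 probes. The brightest, A_52_P101279 (mm8, chr1:155671838-155671897), ran from 15.12 to 15.73 at t=0 (median 15.49), from 14.94 to 15.62 in HF (median 15.39) and from 14.94 to 15.60 in HF-Q (median 15.33). HF minus t=0 was -0.09 (standard error 0.08, limma, adjusted p = 0.432), HF-Q minus t=0 was -0.15 (adjusted p = 0.212) and HF-Q minus HF was -0.07 (adjusted p = 0.73). A_51_P441798 (mm8, chr1:155670873-155670932) had the lowest adjusted p of the 3 in HF-Q against HF, with a difference of -0.30 (standard error 0.11, limma, adjusted p = 0.165). A_52_P143866 (mm8, chr1:155666853-155666912) differed by 0.03 there (adjusted p = 0.907). These probes correlated with each other only with r of 0.26 to 0.40 between livers, so a Glul value depends on which probe is read.

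Oat and Lect2 were not called in any comparison. Oat (probe A_51_P141535, mm8, chr7:132396386-132396445) ran from 14.99 to 16.46 at t=0 (median 15.77), from 15.27 to 16.16 in HF (median 15.75) and from 15.33 to 16.86 in HF-Q (median 15.85), and its adjusted p were 0.746, 0.806 and 0.622 for HF against t=0, HF-Q against t=0 and HF-Q against HF. Lect2 (probe A_51_P249909, mm8, chr13:56552211-56552270) ran from 14.76 to 15.46 at t=0 (median 15.30), from 14.65 to 15.33 in HF (median 15.06) and from 14.22 to 15.46 in HF-Q (median 15.12). One control mouse of 12 was above the t=0 median of Lect2, and the difference of -0.19 (standard error 0.08, limma, adjusted p = 0.091) passed the threshold with other normalizations, namely loess (-0.25, adjusted p = 0.00819), the Feature Extraction signals (-0.23, adjusted p = 0.0085) and quantiles (-0.25, adjusted p = 0.0116). Without control replicate 5, the lowest Lect2 value of its group, it was -0.16 (adjusted p = 0.145). HF-Q minus HF was 0.02 for Lect2 (adjusted p = 0.941).

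The livers were then compared with each other inside the groups. For every pair of the 9 genes, deviations from the group means were correlated over the 36 mice, and 28 of 36 pairs had a positive r, with a median of 0.22. Over all genes of the table, the median r with a member was 0.02. The spread was wide, with a 5th percentile of -0.40 (Rhbg) to -0.31 (Lect2). The 95th percentile ran from 0.36 (Axin2 and Rnf43) to 0.53 (Slc1a2). The share of all gene pairs that would pass the test below was not computed. Of the 36 pairs, 8 passed an adjusted p of 0.05 by permutation of mice within groups, and 10 had an unadjusted p under 0.05. The passing pairs form 2 sets that share no gene: Axin2, Tbx3, Rnf43 and Rhbg on one side, and Slc1a2, Oat and Lect2 on the other. Glul and Lgr5 are in none of them. Inside the first set, Rhbg and Rnf43 did not pass (r = 0.27, adjusted permutation p = 0.304). The separation is not complete in every setting, since Lect2 and Rnf43, of different sets, passed by Spearman's rho (0.49, adjusted p = 0.0217) and without control replicate 5 (r = 0.43, adjusted p = 0.045), and Glul and Lect2 passed by rho (0.45, adjusted p = 0.0312). All these values of a liver come from 1 array and 1 labelling, so errors of an array are shared by both genes of a pair.

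**Figure D3:**
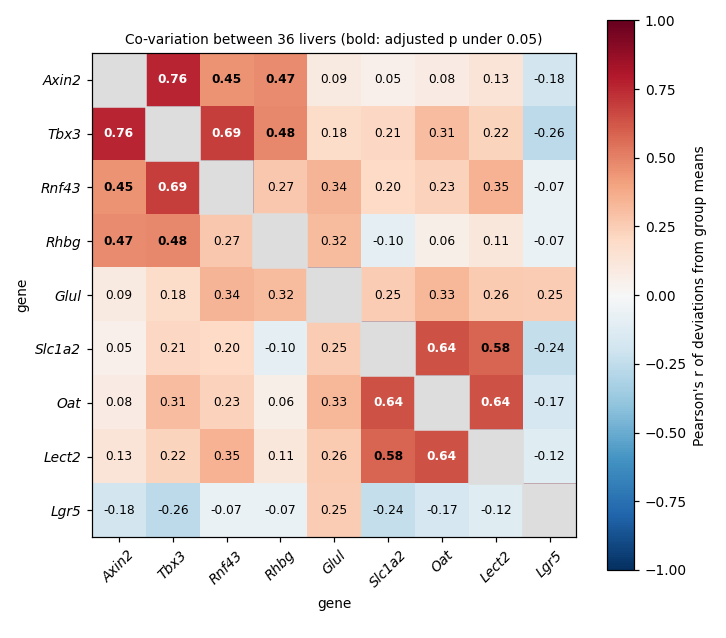
Pearson's r between the deviations of 2 genes from their group means over 36 livers, for all pairs of the 9 genes (both axes list genes, colour and number give r, bold marks an adjusted permutation p under 0.05). Axin2, Tbx3, Rnf43 and Rhbg form a block with r of 0.27 (Rhbg and Rnf43, which did not pass) to 0.76. Slc1a2, Oat and Lect2 form another with r of 0.58 to 0.64.

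Axin2 and Tbx3 varied together most closely. Over 36 livers Pearson's r was 0.76 (permutation p = 1e-05, the smallest that 100000 permutations can give, adjusted p = 0.00036) and Spearman's rho was 0.75 (permutation p = 1e-05, adjusted p = 0.00036). Within the groups r was 0.88 at t=0, 0.72 in HF and 0.61 in HF-Q. The value in HF rested on control replicate 1, without which it was 0.26, while over all livers r was 0.70 without that mouse, 0.67 without the 2 mice farthest from the median of Tbx3, and 0.78 after removal of slide means. Of 13041 other genes, none correlated with Axin2 more closely than Tbx3. In the other passing pairs some genes were closer to a member than its partner was. Their share ran from 0.023% (closer to Rnf43 than Tbx3 was) to 2.91% (closer to Tbx3 than Rhbg was).

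Rnf43 followed Tbx3 as well. Their r was 0.69 (permutation p = 5e-05, adjusted p = 0.0006) and rho 0.66 (permutation p = 0.0001, adjusted p = 0.0009), with 0.82, 0.44 and 0.72 within t=0, HF and HF-Q. It stayed between 0.61 and 0.72 in all alternatives and was 0.69 without the 2 mice farthest in Tbx3. Axin2 and Rnf43 had r of 0.45 (permutation p = 0.0103, adjusted p = 0.0465) and rho of 0.48 (permutation p = 0.0065, adjusted p = 0.0276), but 0.79 at t=0 against 0.03 in HF and 0.26 in HF-Q. This pair was lost on removal of slide means (0.36, adjusted p = 0.165) and without control replicate 1 (0.43, adjusted p = 0.0616).

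Rhbg joined this set more weakly. It had r of 0.48 with Tbx3 (permutation p = 0.00395, adjusted p = 0.0215; rho 0.46, permutation p = 0.00639, adjusted p = 0.0276) and 0.47 with Axin2 (permutation p = 0.00419, adjusted p = 0.0215; rho 0.44, permutation p = 0.0069, adjusted p = 0.0276). Without the 2 mice farthest from the median of Rhbg, r was 0.34 with Tbx3 and 0.35 with Axin2. The pair with Tbx3 was lost on removal of slide means (0.35, adjusted p = 0.119), and the pair with Axin2 under quantile normalization (0.37, adjusted p = 0.124). Within t=0, HF and HF-Q, r was 0.74, 0.34 and 0.29 with Tbx3 and 0.56, 0.38 and 0.49 with Axin2. So Rhbg went with Tbx3 mainly among the t=0 livers, and more weakly in HF and HF-Q. The Rhbg group mean was lower in HF than at t=0, while the Tbx3 mean was 11.78 in HF against 11.09 at t=0.

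In the second set, Oat was the common partner. Slc1a2 and Oat had r of 0.64 (permutation p = 5e-05, adjusted p = 0.0006) and rho of 0.61 (permutation p = 0.00023, adjusted p = 0.00166), with 0.53, 0.74 and 0.73 within t=0, HF and HF-Q and 0.55 without the 2 mice farthest in Oat. Lect2 and Oat had r of 0.64 (permutation p = 0.00018, adjusted p = 0.00144) and rho of 0.64 (permutation p = 8e-05, adjusted p = 0.0009), with 0.62, 0.75 and 0.63 within the groups and 0.54 without the 2 mice farthest in Oat. Both pairs passed in every alternative.

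Slc1a2 and Lect2 had r of 0.58 (permutation p = 0.0002, adjusted p = 0.00144) and rho of 0.66 (permutation p = 6e-05, adjusted p = 0.0009), with 0.61 without the 2 mice farthest in Slc1a2. On the loess ratios r was 0.35 (adjusted p = 0.217) and under quantile normalization 0.40 (adjusted p = 0.124), so this pair depends on the normalization. Control replicate 5 and quercetin replicate 2, the arrays that stood apart, were below their group means in all 3 genes. Without both, r was 0.58 for Slc1a2 and Oat, 0.60 for Lect2 and Oat and 0.53 for Slc1a2 and Lect2. Slc1a2 also fell with the share of spots above background (r = -0.42 over 36 livers, -0.36 without quercetin replicate 2), and the part of array quality in these pairs was not tested.

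**Figure D4:**
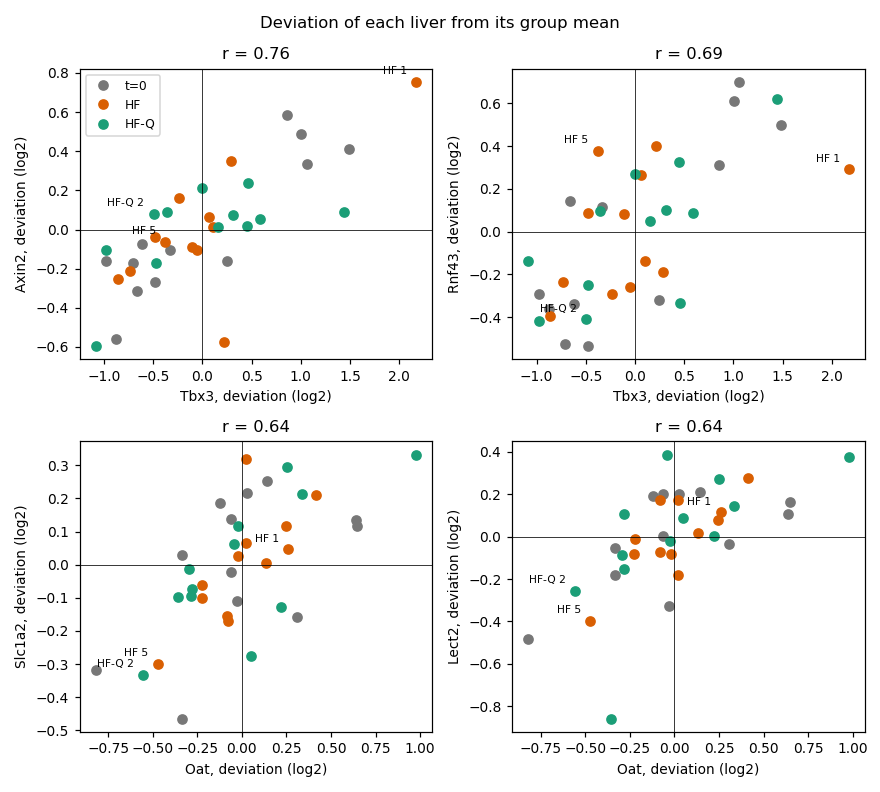
Deviation of each of the 36 livers from its group mean (log2 units on both axes, colour gives the group) for 4 pairs of pericentral genes: Axin2 and Rnf43 against Tbx3 in the upper row, Slc1a2 and Lect2 against Oat in the lower row. Control replicate 1 (HF 1) is the far right point of the upper row, and the arrays HF 5 and HF-Q 2 lie at low values of Oat with low values of Slc1a2 and Lect2.

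Glul, although the best known of these markers, passed with no other member on its brightest probe. The other Glul probes, which correlated with it only with r of 0.35 and 0.40, were not compared with the members. The r of Glul with the other 8 genes lay between 0.09 and 0.34. At t=0 it had r of 0.60 with Axin2, 0.54 with Tbx3 and 0.64 with Rnf43, and in HF-Q r of 0.43, 0.49 and 0.57, but in HF the values were -0.62, -0.47 and -0.29. Without control replicate 1, which had the lowest Glul and the highest Axin2 and Tbx3 of its group, the HF values were -0.30, 0.24 and -0.11, and over all livers Glul and Tbx3 then passed (0.45, adjusted p = 0.0375), as did Glul and Rnf43 (0.43, adjusted p = 0.0434). The difference between the groups in these correlations was not tested. Lgr5 had negative r with 7 of the 8 others, from -0.07 to -0.26, and 0.25 with Glul.

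The genes most alike in their variation were found by Pearson's r over the same 36 livers among all 13041 other genes. For Glul these were Flad1 (0.71), Vcp (0.70), Dalrd3 (0.70), Wwp2 (0.67) and Pex11g (0.67), none of them a member. Rnf43 was closest to Sp5 (0.80) and Lrig3 (0.71), and Tbx3 to Kctd20 (0.77) and Axin2 (0.76). After Tbx3, Axin2 was closest to Kctd20 (0.69). Rhbg was closest to Bak1 (0.73) and Ccdc88b (0.69), Slc1a2 to Swi5 (0.80) and Mpc1 (0.79), Lect2 to Lactb (0.78) and Gsta3 (0.78), and Lgr5 to Sh3pxd2a (0.77) and Thra (0.75). The closest of all was Lhpp to Oat (0.91, with 0.96, 0.95 and 0.87 within t=0, HF and HF-Q), and its gene lies near Oat, at the 3rd place after it along chromosome 7 in the RefSeq annotation, while Bphl followed with 0.72. On the loess ratios Swi5 and Slc1a2 had r of 0.45, so that likeness too depends on the normalization, whereas Lhpp and Oat kept 0.89 and Sp5 and Rnf43 0.79.

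The rest of the Wnt pathway was read from lists of ligands, receptors, inhibitors and the β-catenin machinery. Of 9 measured ligands and R-spondins, Wnt5b, a ligand that signals mostly without β-catenin, was the one called. It fell by 0.36 from t=0 to HF (standard error 0.08, limma, adjusted p = 0.00178) and was 0.44 higher in HF-Q than in HF (standard error 0.11, limma, adjusted p = 0.0277). Beside this stood 7.68% of all genes called lower in HF against t=0 and 1.14% called higher in HF-Q against HF. Wnt2 and Wnt9b, the ligands of the central vein endothelium, differed by 0.06 and -0.02 from t=0 to HF and by 0.01 and 0.03 from HF to HF-Q, with adjusted p of 0.612 or more. The Wnt5b difference between HF-Q and HF passed in 13 of 17 settings, the main one included. Among the settings where it was lost were Arntl as a covariate (0.26, adjusted p = 0.422), slide as a fixed block (0.40, adjusted p = 0.104) and the methods' t-test (adjusted p = 0.0512).

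Among 7 measured inhibitors and feedback genes, 2 were higher in HF than at t=0 and none was lower. The shares over all genes were 13.4% higher and 7.68% lower. Sp5 rose by 0.44 (standard error 0.12, limma, adjusted p = 0.00946) and Nkd1, which binds Dishevelled and dampens the signal, by 0.28 (standard error 0.08, limma, adjusted p = 0.0169). In HF-Q against t=0, Nkd1 (0.27, adjusted p = 0.0268), Notum, an enzyme that inactivates Wnt ligands (0.28, adjusted p = 0.0152), and the transcription factor Tcf7 (0.26, adjusted p = 0.00367) were higher. There, 7.45% of all genes were called higher. None of the 7 was called in HF-Q against HF, and the median of the list was 0.13, 0.22 and 0.12 in HF against t=0, HF-Q against t=0 and HF-Q against HF. The call of Sp5 held in all 13 alternatives, while that of Nkd1 in HF against t=0 was lost in 2 of them, with adjusted p up to 0.0575. In HF-Q against t=0, with the main setting included, Nkd1 was called in 12 and Notum in 13 of 14 settings. Tcf7 was called in all 13 that gave it a value.

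Some receptors and genes of the β-catenin machinery were called in HF against t=0. Of all genes, 13.4% were called higher and 7.68% lower in that comparison. The counts from these short lists are near those shares. Of 10 measured receptors and co-receptors, Fzd1 (0.25) and Fzd7 (0.27) were higher and Fzd8 (-0.29) lower in HF than at t=0, with adjusted p of 0.00306, 0.0357 and 0.00261, and none was called in either comparison of HF-Q. Over the alternatives, 2 to 6 receptors were called in HF against t=0. The Fzd7 call was lost without control replicate 5 (0.23, adjusted p = 0.0572) or 1 (0.25, adjusted p = 0.0574) and in 4 other alternatives. Of 15 genes of the β-catenin machinery, Tcf7l1 (0.34, adjusted p = 0.00719) and Dvl1 (0.18, adjusted p = 0.0325) were higher in HF than at t=0, and none was called in HF-Q against HF. With the main setting included, Tcf7l1 was called in all 14 settings and Dvl1 in 12. Ctnnb1, the gene of β-catenin, differed by 0.02, -0.05 and -0.07 in the 3 comparisons.

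Other genes of the pericentral zone were called in both directions. Of 26 measured, 3 were higher (Gstm1 by 0.55, Gstm3 by 0.39 and Blvrb by 0.32) and 7 lower in HF than at t=0, among them Sult5a1 (-0.61), Por (-0.59), Cyp2e1 (-0.36), Hpd (-0.36) and Cyp1a2 (-0.31). Of all genes, 13.4% were called higher and 7.68% lower in this comparison, and 6 to 12 of the list were called over the alternatives. The median of the list was -0.12, and that of all genes was 0.02. In HF-Q against t=0, 4 were higher, Cyp2c37, Gstm1, Gstm3 and Blvrb, and 3 lower, Gulo, Sult5a1 and Hpd, with shares over all genes of 7.45% and 5.41%. Of 14 settings, the main one included, Gstm3 was called in 10, Gulo in 11, Gstm1 in 12, Hpd in 13 and the others in all. In HF-Q against HF, where 1.14% of all genes were called higher and 1.08% lower, 5 were higher: Cyp7a1 (1.08), the rate-limiting enzyme of bile acid synthesis, Por (0.98), which passes electrons to cytochrome P450 enzymes, Cyp2a5 (0.88), the receptor Nr1i3 (0.46) and Cyp2c37 (0.36). Avpr1a, a vasopressin receptor, was lower (-0.50), and the median of the list was 0.08. With Arntl as a covariate none of the 26 was called in that comparison, and the differences of Por and Cyp2a5 were 0.44 and 0.35. The call of Cyp7a1 was lost in 6 of 16 alternatives, among them leaving out quercetin replicate 2 (1.01, adjusted p = 0.0694), and that of Avpr1a in 3 of 16. The study of these arrays had already reported Por and Nr1i3 as raised by quercetin, and the lists were chosen with earlier results known. The count of 5 called higher in HF-Q against HF is therefore not independent of those results.

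Genes of the opposite, periportal end were called mainly in the lower direction. Of 26 measured, 7 were lower in HF than at t=0, among them Sds (-0.68), Igfals (-0.38), Cps1 (-0.32) and Asl (-0.28), of which Cps1 and Asl encode urea cycle enzymes, and Sox9, which also marks cholangiocytes, was higher (0.64), while over the whole list 14 differences were below 0 and 12 above. In HF-Q against t=0, 10 were lower and none higher, among them Sds (-0.73), Hal (-0.55), Cdh1 (-0.55), Agxt (-0.49) and Cps1 (-0.45), with a list median of -0.24. Against HF, Cdh1 (-0.56) and Sox9 (-0.60) were lower in HF-Q and none was higher. Each of these calls held in 16 of 17 settings, the main one included. In that comparison 0 to 3 genes of the list were called over the settings. The shares of all genes called lower were 7.68% in HF against t=0, 5.41% in HF-Q against t=0 and 1.08% in HF-Q against HF. Calls of the list in either direction ran from 5 to 12 over the alternatives in both comparisons with t=0. Leaving out control replicate 5 and quercetin replicate 2 gave 6 lower and 1 higher for HF against t=0 and 11 lower for HF-Q against t=0.

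**Figure D5:**
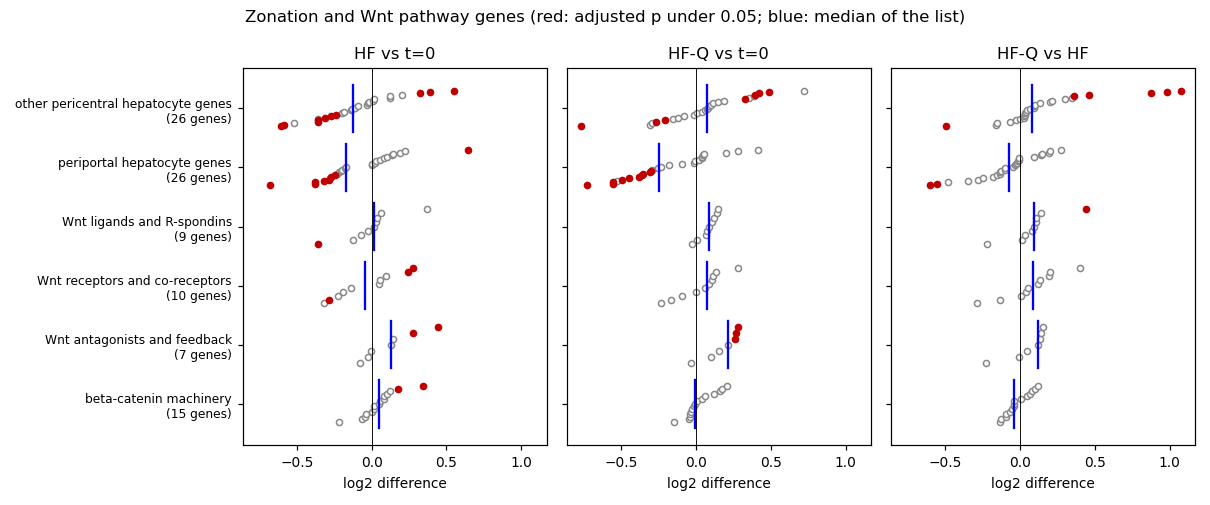
Log2 differences (horizontal axis) of single genes (points, brightest probe) in 6 lists of zonation and Wnt pathway genes for the 3 comparisons, red where limma's adjusted p was under 0.05, with the list's median in blue. The periportal list has its median at -0.24 in HF-Q vs t=0, and the red points of HF-Q vs HF are mostly in the pericentral list, up to 1.08. The lists were chosen with earlier results of these data known.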

How the data were processed

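Livers of 36 mice were measured on 36 Agilent whole-genome arrays, 9 slides of 4, and every slide held all 3 groups. Groups and replicate numbers were taken from the sample titles. The scanner files deposited by the authors hold the median intensity of each spot and its background in Cy5 (1 mouse) and Cy3 (the pool), quantified with Agilent Feature Extraction 10.5.1.1 per the file headers and the submitters' processing notes. The processed table deposited by the authors holds log2 values of 23256 spots (21781 probes). Set against the scanner files, they equalled log2 Cy5 minus log2 Cy3 plus the mean log2 Cy3, centred on a common array median, with a median absolute difference of 0.0199 over 837216 values; no dye was swapped. Spots of a probe were averaged, and the gene value is that of the probe with the highest mean.

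Groups were compared with limma 3.58.1 (R 4.3.3) in 2-group fits of 24 arrays, two-sided, with Benjamini-Hochberg adjustment over 21781 probes. Each array is a different mouse, and the number of arrays limits precision. Pairs of members were tested with 100000 permutations within groups, adjusted over 36 pairs (Python 3.11.15, numpy 2.4.6). Of 41174 probes, 24375 were named by accession and 8727 by symbol; probe positions are those of build mm8. The procedure was tested on simulated data. The members and gene lists were chosen with earlier results of these data known. Named genes are the 9 members, called list genes (for the longer lists, examples), the 5 genes most like Glul, the 2 most like each other member, and Arntl and Dbp; Wnt2, Wnt9b and Ctnnb1, which were not called, were named for their roles after their values were seen. Alternatives changed the source of the values (normexp with an offset of 50 and loess, median centring or the Feature Extraction signals), quantile normalization, a filter at 3 times background, the methods' t-test, slide or replicate number as a term, all 36 arrays in 1 fit, Arntl as a covariate, and arrays left out. Leaving out control replicates 1 and 5, alone or with quercetin replicate 2, and quercetin replicate 2 under loess, was chosen after seeing the data, as was the list of 18 pancreatic genes. Loess ratios kept outlier spots in the correlations only.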

Additional observations from a re-analysis of the deposited data

How the results depend on the processing

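Over the alternatives, 517 of 543 values of member probes kept their direction and their side of the threshold. No called difference changed sign, but 16 values of differences that were not called did. In HF against t=0 these were Lgr5 (main 0.001), with -0.071 under the Arntl covariate, -0.047 with the Feature Extraction signals, -0.015 with quantiles, -0.026 with loess and -0.004 with median centring, and the brightest Slc1a2 probe (main -0.011), with 0.013 under the Arntl covariate and, leaving out arrays, -0.015 to 0.016. In HF-Q against HF they were Axin2 (main -0.216), with 0.12 under the Arntl covariate, Glul (main -0.067), with 0.023 under median centring, and Lect2 (main 0.021), with -0.015 to 0.045 leaving out arrays. In HF-Q against t=0 they were Axin2 (main -0.036), with 0.01 from the Feature Extraction signals, Lgr5 (main -0.036), with 0.012 under the Arntl covariate, and Slc1a2 probe A_51_P477875 (main 0.007), with -0.03, -0.024, -0.006 and -0.013 under the Arntl covariate, the Feature Extraction signals, quantiles and loess. Members called in HF against t=0 were 2 in place of 1 with loess, with the Feature Extraction signals, with quantile normalization and with the replicate block (Lect2 added), and 2 with Arntl as a covariate (Rnf43 added). In HF-Q against HF, 1 member was called in place of 0 with loess, with quantile normalization and with loess without quercetin replicate 2 (the brightest Slc1a2 probe). Probes called in HF-Q against HF were 513, and 341 with median centring, 210 with slide as a fixed block and 1 with Arntl as a covariate. Of 288 values of member pairs, 268 kept their direction and side. The 8 that changed sign were of pairs that did not pass: on removal of slide means, Axin2 with Lect2 (-0.11), Oat (-0.01) and Slc1a2 (-0.03) and Rhbg with Lect2 (-0.13), Lgr5 (0.07) and Oat (-0.15), and Rhbg with Oat also by rho (-0.07) and, leaving out arrays, with -0.02 to 0.12. The number of passing pairs stayed between 6 and 10. Replicate numbers gave no pairing of mice across groups: deviations of same-numbered mice correlated with a median r of -0.01, 0.061 and 0.033 in the 3 comparisons, with 3 or 4 of 12 pairs over 0.1, and the replicate block added 1 member, Lect2, in HF against t=0 (-0.19, adjusted p = 0.0238). Dim probes are limited by background, and Axin2 gave no value under the filter at 3 times background.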
